A study of Mus musculus with 36 samples.

Results

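The 9 genes Meox1, Acta2, Fap, Runx1, Twist1, Scx, Cthrc1, Ddah1 and Lrrc15 are regulators and markers of the myofibroblast, the contractile, matrix-secreting state that fibroblasts take on in an injured heart. They were taken by gene symbol from the authors' deposited table, and all 9 were found among its 25626 listed genes. The table holds normalized read counts from RNA sequencing of 36 mouse hearts, each taken whole and snap-frozen, with 6 mice in each of 6 groups. Mice labelled cSirt4-Tg or control had TAC surgery and MitoQ (Tg-TAC-MQ and Con-TAC-MQ), TAC surgery and vehicle (Tg-TAC and Con-TAC), or sham surgery and vehicle (Tg-Sham and Con-Sham). TAC, transverse aortic constriction, narrows the aorta and overloads the left ventricle, MitoQ is an antioxidant targeted to mitochondria, and Sirt4 is a mitochondrial sirtuin. Not stated in the sources used here are the promoter that drives the transgene, the age of the mice, the MitoQ dose and the time after surgery.

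Resting cardiac fibroblasts are activated by stretch and by TGF-beta, which signals through Smad proteins. Activated cells assemble contractile fibres that contain smooth muscle actin and secrete collagens and collagen-handling proteins. The transcription factors Meox1, Runx1, Twist1 and Scx regulate this state, Acta2 encodes its contractile actin, Cthrc1, Fap and Lrrc15 mark the surface or the secretions of activated fibroblasts, and Ddah1 encodes an enzyme that degrades an inhibitor of nitric oxide synthesis.

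Promoter windows of 300 bases, from 250 before to 50 after the annotated start, were at hand from RefSeq (build GRCm38.p6) for 5 of the 9 members. Those of Acta2 and Ddah1 are shown because these genes differed between Tg-TAC and Con-TAC, and that of Twist1 because it rose after TAC in both genotypes. They lie at chr19:34255324-34255623 (minus strand), chr3:145758442-145758741 (plus strand) and chr12:33957421-33957720 (plus strand). Capitals mark the E-box CANNTG, the Smad element GTCTG, the TEAD element CATTCC and a CArG-like box, searched on both strands. The CArG-like box was searched as CC and GG around 6 bases of which at least 5 are A or T, a loose form of the site of serum response factor.
Acta2: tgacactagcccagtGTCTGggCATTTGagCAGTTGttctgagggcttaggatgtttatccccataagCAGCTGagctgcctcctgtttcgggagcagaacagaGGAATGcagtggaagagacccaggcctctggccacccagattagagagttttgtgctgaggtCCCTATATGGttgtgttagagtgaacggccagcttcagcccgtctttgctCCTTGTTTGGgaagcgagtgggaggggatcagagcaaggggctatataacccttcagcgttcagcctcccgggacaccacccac
Ddah1: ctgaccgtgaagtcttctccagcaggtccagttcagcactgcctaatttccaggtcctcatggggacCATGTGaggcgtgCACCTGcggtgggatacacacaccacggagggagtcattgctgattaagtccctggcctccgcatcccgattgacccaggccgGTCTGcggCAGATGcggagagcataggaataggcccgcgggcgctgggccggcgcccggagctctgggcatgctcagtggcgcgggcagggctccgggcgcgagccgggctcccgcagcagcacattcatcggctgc
Twist1: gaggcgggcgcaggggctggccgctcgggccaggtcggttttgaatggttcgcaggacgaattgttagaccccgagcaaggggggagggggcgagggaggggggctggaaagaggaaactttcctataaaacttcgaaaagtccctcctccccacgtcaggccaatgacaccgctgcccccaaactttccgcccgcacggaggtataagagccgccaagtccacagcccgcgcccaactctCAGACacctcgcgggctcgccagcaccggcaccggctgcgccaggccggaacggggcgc
The Acta2 window held 3 E-boxes, 1 Smad element, 1 TEAD element and 2 CArG-like boxes, CCCTATATGG and CCTTGTTTGG. Ddah1 had 3 E-boxes and 1 Smad element, and Twist1 had 1 Smad element. Of 32851 mouse promoter windows, 72.3% held an E-box, 49.6% a Smad element, 14.7% a TEAD element and 9.98% a CArG-like box. The RUNX element TGNGGT, not capitalised, occurred once each in the Acta2 and Ddah1 windows, where the Ddah1 match overlaps an E-box, and in 45.8% of all windows.

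The libraries held 14.8 to 60.0 M reads, with a median of 28.4 M. Sirt4 itself averaged 362 ± 57.8 in Tg-TAC and 341 ± 49.6 in Con-TAC, 349 ± 22.5 in Tg-TAC-MQ and 353 ± 18.6 in Con-TAC-MQ, and 377 ± 48.0 in Tg-Sham and 412 ± 96.6 in Con-Sham (SD, n = 6 each). None of these 3 differences passed an exact two-sided permutation test (p = 0.528, 0.742 and 0.539, each 0.742 after adjustment, where the smallest possible p is 0.00216), so Tg below names a label that the level of Sirt4 did not separate from control. Whether reads from the transgene are counted in the Sirt4 row is not stated, so these values may not check the label. Library Tg-TAC 6 was more like another group: its median correlation over the tested genes was 0.926 with its own group and 0.964 with Con-Sham. Member counts that change without it are given both ways. It was not alone in this. Tg-TAC 4 had a lower median with its own group (0.919), and Con-TAC 6 had 0.932 with its own group and 0.949 with Tg-TAC. Several libraries of other groups also correlated best with a group not their own. All 12 MitoQ libraries carry a 20 or 21 in their names, a number whose meaning is not given, whereas only Con-TAC 6 does so among the 24 vehicle libraries, so MitoQ and what that number stands for cannot be told apart. Tg-TAC 6, Con-Sham 4 to 6 and Tg-Sham 4 to 6 carry 29 to 31, and the remaining vehicle libraries 7 to 14. The number is therefore unbalanced between TAC and sham as well. Cardiomyocyte markers were abundant in every library, with a summed level of 1003420 to 1624230 in the 5 other Tg-TAC libraries and 2224850 in Tg-TAC 6.

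Per kilobase of exon, Acta2 was the most abundant member, at 2756 normalized counts per kb in Tg-TAC and 1590.1 in Con-Sham. Meox1 reached 624 per kb in Tg-TAC against 95.7 in Con-Sham, Scx 230.0 against 80.4, and Ddah1 173 against 67.8. Lower on the same scale were Cthrc1 (81.6 in Tg-TAC, 1.81 in Con-Sham), Twist1 (49.9 and 15.6), Fap (26.8 and 21.0), Runx1 (13.3 and 4.19) and Lrrc15 (0.800 and 1.17). Tg-TAC had the highest group mean for 7 of the 9 members, the exceptions being Fap and Lrrc15, and Con-Sham had the lowest for 7, the exceptions being Acta2 and Lrrc15. The other 8 members passed the filter on low values, 6 or more libraries with a value of 10 or higher, while Lrrc15 reached 10 in 5 libraries.

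**Figure D1:**
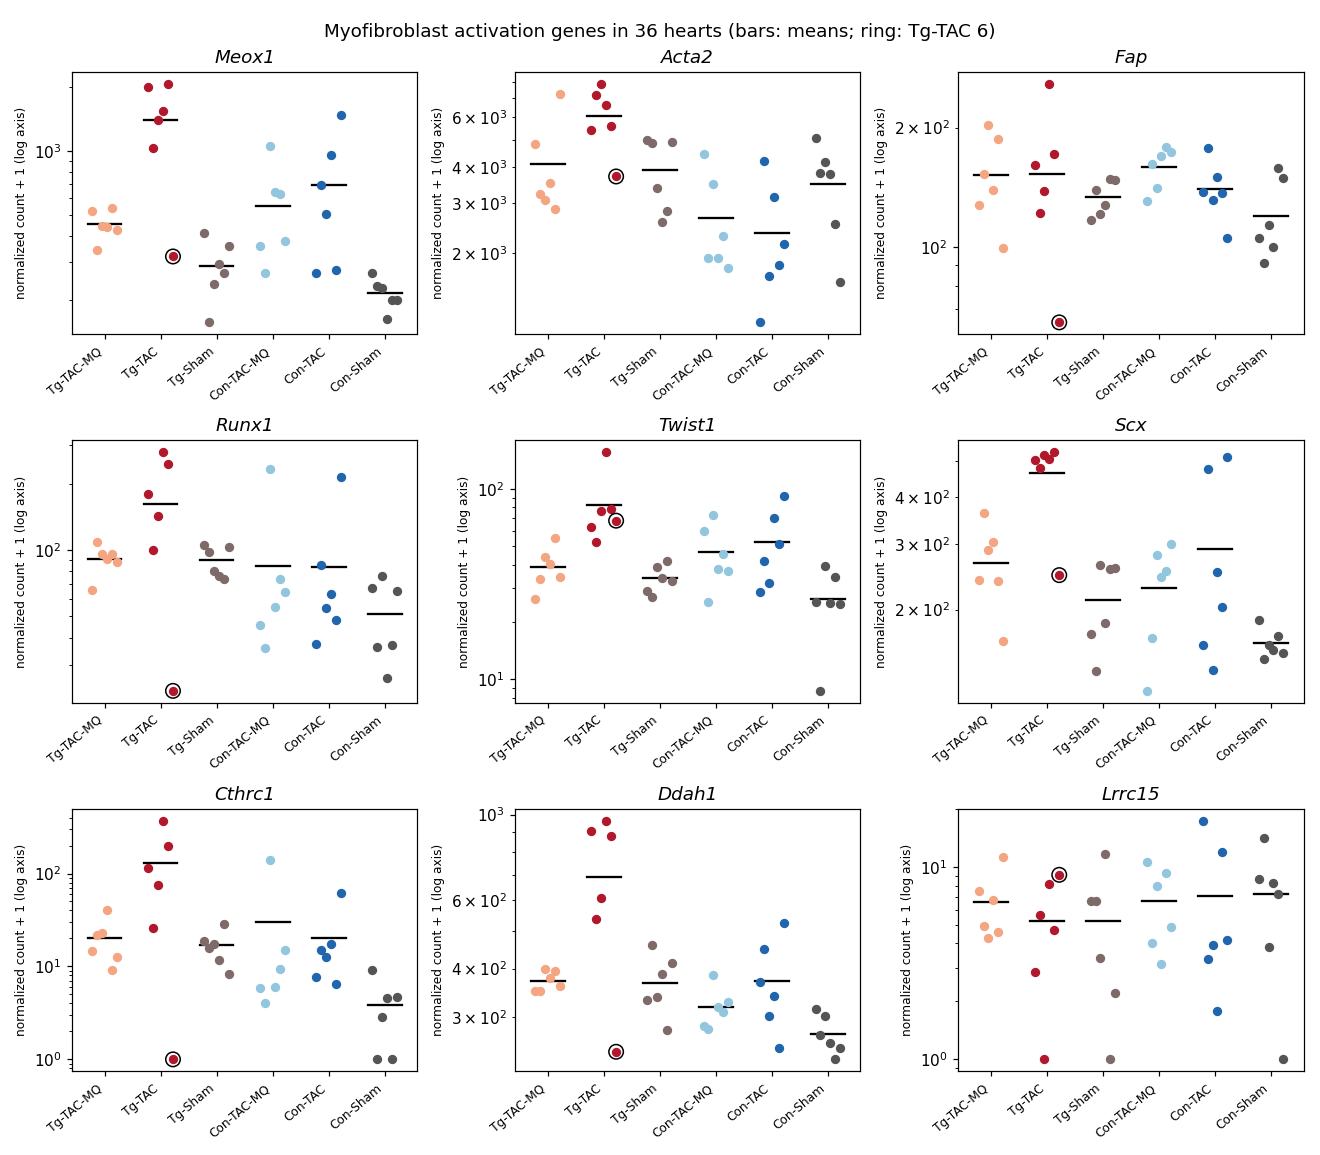
Normalized count plus 1 of the 9 genes (log axes) in the 6 libraries of each group, with bars at the group means and a ring around library Tg-TAC 6. The ringed library lies under the other Tg-TAC libraries for 7 genes and among or above them for Twist1 and Lrrc15.

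TAC in hearts labelled cSirt4-Tg was examined first, as Tg-TAC against Tg-Sham. The transcription factors Meox1, Twist1 and Scx and the enzyme Ddah1 were higher in Tg-TAC, Meox1 by 4.36-fold and the other 3 by 1.73- to 2.29-fold. The actin Acta2, the surface protease Fap, Runx1 and the secreted Cthrc1 did not pass. Of the 8 tested members 4 passed, all higher, where 16.7% of all tested genes passed and 7.91% were higher. The median difference of the 8 was 0.96 on the log2 scale, against -0.01 over all tested genes.

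Meox1, a homeodomain factor known as a switch of fibroblast activation under pressure overload (chr11:101768336-101785200, mm39), had a lowest, median and highest normalized count of 318, 1467 and 2067 in Tg-TAC, against 155, 279.8 and 409 in Tg-Sham. The 5 libraries other than Tg-TAC 6 were all above every Tg-Sham library, while Tg-TAC 6 lay within the sham range. Its log2 difference was 2.12 (SE 0.38, limma adjusted p = 0.000956). Twist1, a basic helix-loop-helix factor of mesenchymal cells (chr12:34007670-34009828), had 51.3, 71.2 and 154 in Tg-TAC, against 26.1, 32.3 and 40.7 in Tg-Sham. It was the only member whose groups did not overlap here, which 2.21% of tested genes shared, and its log2 difference was 1.20 (SE 0.31, adjusted p = 0.00928).

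Scx, the basic helix-loop-helix factor scleraxis of tendon and matrix-producing cells (chr15:76341652-76343658), had 246, 502 and 525 in Tg-TAC, against 136, 219 and 262 in Tg-Sham. Apart from Tg-TAC 6, the Tg-TAC libraries stood close together at 477 to 525, above all sham libraries. The log2 difference was 1.13 (SE 0.26, adjusted p = 0.00490). Scx lies within Bop1, a ribosome biogenesis gene on the opposite strand, and whether reads were counted by strand is not given. Bop1 averaged 885 in Tg-TAC and 681 in Tg-Sham, a log2 difference of 0.37 (adjusted p = 0.0150), where Scx averaged 462 and 211. In Con-TAC and Tg-TAC-MQ, Bop1 averaged 714 and 682, and Scx 289 and 265. With MitoQ, Bop1 was lower in Tg-TAC-MQ than in Tg-TAC (-0.37, limma adjusted p = 0.0148). The part of Bop1 reads in the Scx differences was not tested. Both tested tendon and valve markers were higher in Tg-TAC: Tnmd averaged 19.5 ± 18.0 in Tg-TAC and 0.187 ± 0.459 in Tg-Sham (log2 difference 3.42, adjusted p = 0.00459) and Fmod 891 ± 1312 and 35.5 ± 29.6 (3.55, adjusted p = 0.0270, SD over 6 hearts each). The Tg-TAC libraries were far apart: the tendon and valve marker sum was 3605 in Tg-TAC 4, 846 in Tg-TAC 5, the next highest, and 12.7 in Tg-TAC 6.

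Ddah1, which breaks down asymmetric dimethylarginine (chr3:145464430-145600032), had 243, 743 and 963 in Tg-TAC, against 276, 362 and 459 in Tg-Sham. The lowest Tg-TAC value, again that of Tg-TAC 6, was below every sham library, and the other 5 were above all of them. The log2 difference was 0.79 (SE 0.21, adjusted p = 0.00956), and it did not pass when only the 12 libraries compared entered the fit (limma adjusted p = 0.111). A pseudogene, Rpl36a-ps2, lies within Ddah1 on the same strand and averaged 29.2 in Tg-TAC and 23.1 in Tg-Sham.

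The members that did not pass spread widely. Cthrc1, a secreted protein of collagen triple helix repeats that marks activated cardiac fibroblasts (chr15:38940327-38950516), had 0, 94.2 and 368 in Tg-TAC, against 7.33, 15.7 and 27.8 in Tg-Sham, the 0 being that of Tg-TAC 6. Its log2 difference of 1.69 had an SE of 0.92 (adjusted p = 0.204), while edgeR, on reads, called it (2.99, adjusted p = 0.0187). Runx1, a runt-domain factor of blood cells and activated fibroblasts (chr16:92398354-92623037), had 22.0, 160.1 and 277 in Tg-TAC, against 72.8, 88.6 and 105 in Tg-Sham (log2 difference 0.51, SE 0.44, adjusted p = 0.456). Without Tg-TAC 6 both passed, Cthrc1 at a log2 difference of 2.82 (SE 0.72, adjusted p = 0.00371) and Runx1 at 1.00 (SE 0.37, adjusted p = 0.0436), so that 6 members were higher, where 28.3% of all genes then passed.
Acta2 (chr19:34218490-34232990) had 3709, 6095 and 7855 in Tg-TAC, against 2559, 4111 and 4967 in Tg-Sham, a log2 difference of 0.64 (SE 0.30, adjusted p = 0.131) with overlapping groups.

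TAC in control hearts was examined as Con-TAC against Con-Sham. Meox1 was 2.71-fold and Twist1 2.02-fold higher in Con-TAC than in Con-Sham, and no other member passed. That is 2 of 8 tested members, both higher, where 5.3% of all tested genes passed and 2.65% were higher. The median log2 difference of the 8 was 0.60, against 0.01 over all tested genes.

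Meox1 had a lowest, median and highest value of 265, 598 and 1470 in Con-TAC, against 162, 212 and 265 in Con-Sham. The Con-TAC libraries ran over a wide range: Con-TAC 1, at 265, lay within the sham range, Con-TAC 5, at 274, just above it, and Con-TAC 6 was highest. The log2 difference was 1.44 (SE 0.38, limma adjusted p = 0.0284). Twist1 had 27.9, 45.5 and 90.9 in Con-TAC, against 7.70, 24.3 and 38.5 in Con-Sham, with overlap, and differed by 1.01 (SE 0.31, adjusted p = 0.0491).
Among the 8 tested members Acta2 was the one with a negative difference: it had 1138, 1980.1 and 4197 in Con-TAC, against 1581, 3810 and 5047 in Con-Sham (log2 difference -0.61, SE 0.30, adjusted p = 0.218). Scx had 137, 227 and 511 in Con-TAC, against 146, 157 and 187 in Con-Sham, and Con-TAC 2 and Con-TAC 6, at 475 and 511, were far above the rest (log2 difference 0.66, SE 0.26, adjusted p = 0.131). The remaining log2 differences were 2.35 for Cthrc1 (SE 0.92, adjusted p = 0.119), 0.55 for Runx1 (SE 0.44, adjusted p = 0.487), 0.42 for Ddah1 (SE 0.21, adjusted p = 0.219) and 0.24 for Fap (SE 0.21, adjusted p = 0.521).
Both calls were near the threshold: Meox1 was lost without Con-TAC 4, Con-TAC 6, Con-Sham 4, Con-Sham 5 or Con-Sham 6 (adjusted p = 0.0525 to 0.0981), and Twist1 without any 1 of the libraries other than Con-TAC 1 and Con-Sham 3 (adjusted p = 0.0501 to 0.146). Restricting to name numbers 7 to 14 keeps Con-TAC 1 to 5 and Con-Sham 1 to 3. Among these libraries Meox1 differed by 0.98 (adjusted p = 0.258) and Twist1 by 1.05 (adjusted p = 0.272), and no member passed, where 0.147% of all genes did. The same restriction, which keeps Tg-TAC 1 to 5 and Tg-Sham 1 to 3, left 5 members higher in Tg-TAC than in Tg-Sham, where 17.5% of all genes passed.

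**Figure D2:**
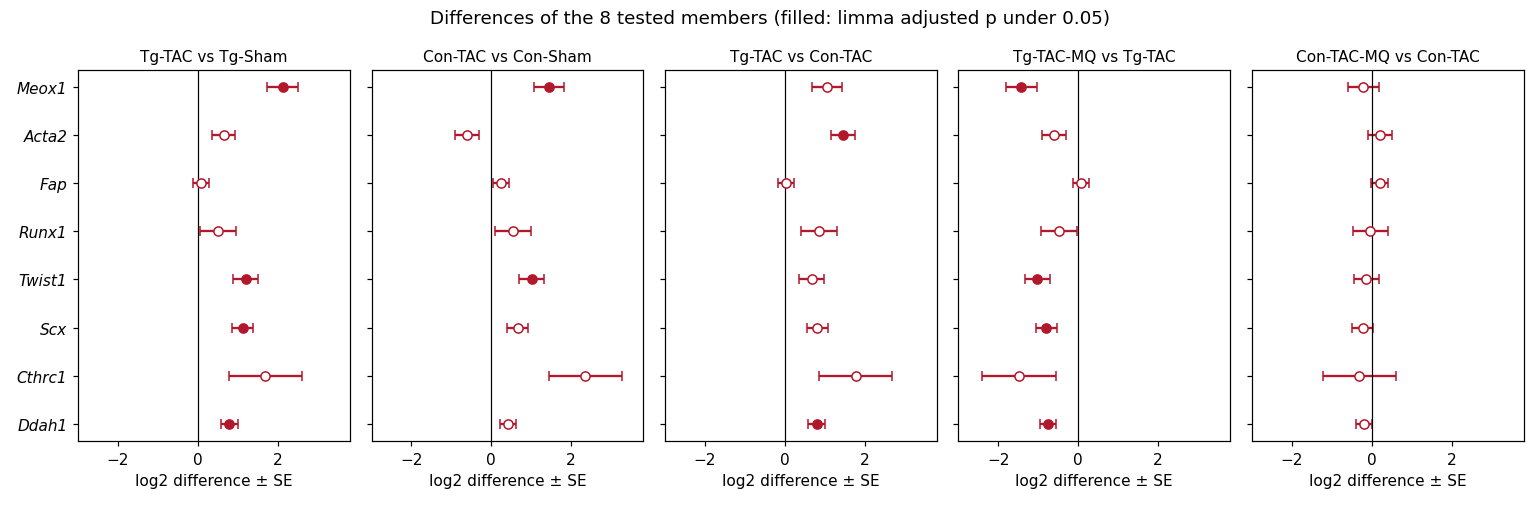
Log2 difference with its SE for the 8 tested members in 5 comparisons, each named as its first group against its second. Filled points passed at a limma adjusted p under 0.05: 4 in Tg-TAC vs Tg-Sham, 2 in Con-TAC vs Con-Sham, 2 in Tg-TAC vs Con-TAC, 4 in Tg-TAC-MQ vs Tg-TAC and 0 in Con-TAC-MQ vs Con-TAC.

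After TAC the 2 genotype labels were compared directly, as Tg-TAC against Con-TAC. The contractile actin Acta2 was 2.75-fold and the enzyme Ddah1 1.74-fold higher in Tg-TAC, while the transcription factors and Cthrc1 had positive differences that did not pass. With 2 of 8 tested members called, both higher, the background was 6.48% of all tested genes, and 3.19% higher. All 8 differences were positive, with a median of 0.83 on the log2 scale, against 0.00 over all tested genes.

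Acta2 had 3709, 6095 and 7855 in Tg-TAC, against 1138, 1980.1 and 4197 in Con-TAC. Of the Tg-TAC libraries 5, at 5383 or more, were above all Con-TAC libraries, and Tg-TAC 6 overlapped with them. The log2 difference was 1.46 (SE 0.30, limma adjusted p = 0.00839). Because this actin is also the main actin of vascular smooth muscle, the smooth muscle markers were read beside it. Their summed level was 4567 to 8387 in Tg-TAC and 5928 to 6878 in Con-TAC, and 0 of the 7 markers passed in either direction. The smooth muscle myosin Myh11 is among them, and Acta2 itself is not. Smtn alone averaged 3289 in Tg-TAC and 3576.5 in Con-TAC, so the sum is weighted towards this gene and is a coarse measure of these cells. The part of smooth muscle cells in the Acta2 difference was not tested.

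Ddah1 had 243, 743 and 963 in Tg-TAC, against 249, 353 and 523 in Con-TAC. It was above every Con-TAC library in 5 of the Tg-TAC libraries, and its log2 difference was 0.80 (SE 0.21, adjusted p = 0.0244). This call was lost without Tg-TAC 1, Tg-TAC 4, Tg-TAC 5, Con-TAC 3 or Con-TAC 5 (adjusted p = 0.0639 to 0.0894). Scx (log2 difference 0.81, SE 0.26, adjusted p = 0.0549) and Meox1 (1.06, SE 0.38, adjusted p = 0.0795) fell just short. Further from the threshold were Twist1 (0.67, SE 0.31, adjusted p = 0.164), Cthrc1 (1.78, SE 0.92, adjusted p = 0.212) and Runx1 (0.85, SE 0.44, adjusted p = 0.213).

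Tg-TAC 6 decided much of this. Without it 6 members were higher in Tg-TAC, where 22.4% of all genes then passed: Acta2, Ddah1, Meox1 (log2 difference 1.44, SE 0.34, adjusted p = 0.00347), Scx (0.99, SE 0.26, adjusted p = 0.00742), Runx1 (1.35, SE 0.37, adjusted p = 0.0101) and Cthrc1 (2.91, SE 0.72, adjusted p = 0.00468). Leaving out Con-TAC 6, in which Meox1, Runx1, Scx, Cthrc1, Ddah1 and Twist1 were the highest of their group, gave 4 members, where 17.3% of all genes passed, with Meox1 at 1.33 (adjusted p = 0.0164) and Scx at 1.01 (adjusted p = 0.00867) beside Acta2 and Ddah1. Among name numbers 7 to 14, which hold neither library, 6 members passed, where 25.2% of all genes did, with log2 differences of 1.59 for Acta2 (adjusted p = 0.000996), 1.18 for Ddah1, 1.71 for Meox1, 1.19 for Scx, 1.67 for Runx1 and 3.32 for Cthrc1.
Leaving out Tg-TAC 4 went the other way: Ddah1 was lost (limma adjusted p = 0.0894), and 0.823% of all genes passed. When only the 12 libraries compared entered the fit, 0 members passed, Acta2 having an adjusted p of 0.120 there, and 1 of the 16275 tested genes passed.

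**Figure D3:**
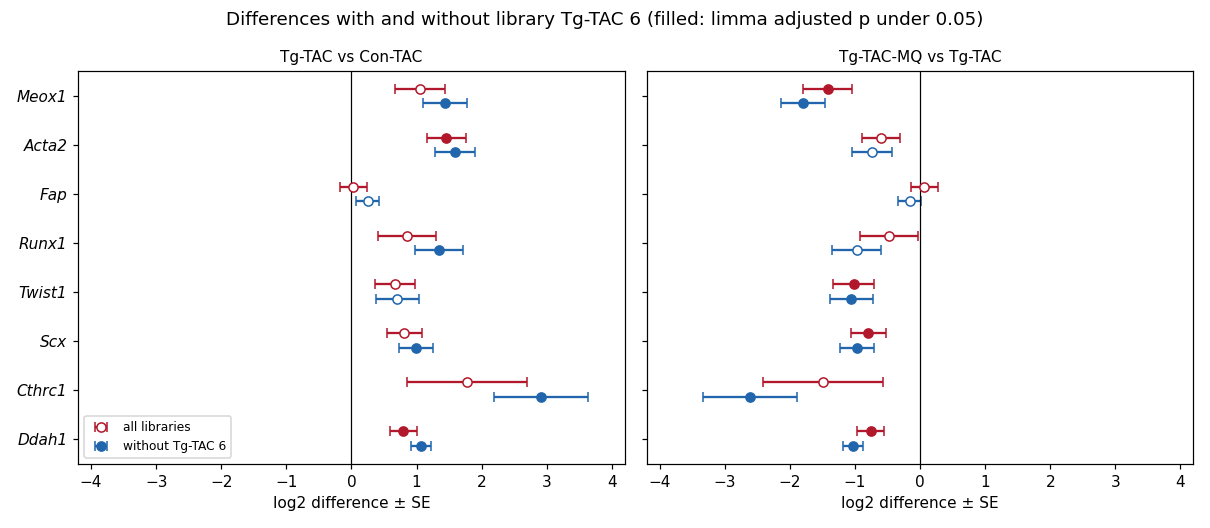
Log2 difference with its SE of the 8 tested members in Tg-TAC vs Con-TAC and in Tg-TAC-MQ vs Tg-TAC, with all libraries (red) and without library Tg-TAC 6 (blue). Filled points passed at a limma adjusted p under 0.05, 2 and 6 members in the left panel and 4 and 5 in the right one.

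Whether TAC acted differently in the 2 genotypes was tested as an interaction. No member passed in limma, where 0% of all tested genes did, nor in edgeR or DESeq2. Acta2 was the single member with an unadjusted p under 0.05, among 949 such genes. Its difference of differences was 1.25 (SE 0.42, limma unadjusted p 0.00534, adjusted p = 0.713). Its TAC difference was 0.64 in cSirt4-Tg hearts and -0.61 in control hearts. Of the 7 smooth muscle markers 5 also had a positive interaction and 0 passed, with a median of 0.67, against -0.02 over all tested genes. For Meox1 the interaction was 0.68 (SE 0.54, adjusted p = 0.897) and for Scx 0.47 (SE 0.37, adjusted p = 0.897).

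MitoQ after TAC was compared with vehicle within each genotype. In hearts labelled cSirt4-Tg the same 4 genes that rose after TAC were lower with MitoQ, Meox1 at 0.373 and Twist1, Scx and Ddah1 at 0.492 to 0.592 of the vehicle level. Both comparisons use the Tg-TAC libraries, so these directions are not independent of each other. With 4 of 8 tested members called, all lower, the background was 17.3% of all tested genes, and 7.44% lower. The median log2 difference of the 8 was -0.78, against 0.00 over all tested genes.
Markers of several cell types differed in the same comparison, where 17.3% of all tested genes passed and 7.44% were lower. Of the tested endothelial, lymphocyte, epicardial and adipocyte markers 0 passed. Of 8 general fibroblast markers 3 were lower in Tg-TAC-MQ than in Tg-TAC, namely Pdgfrl (-1.35, adjusted p = 0.00894), Dcn (-0.41, adjusted p = 0.0357) and Tcf21 (-0.44, adjusted p = 0.0442), and their sum was 50764 to 62893 in Tg-TAC-MQ and 53125 to 68275 in Tg-TAC. Of 8 cardiomyocyte markers 2 were higher, Ryr2 (0.71, adjusted p = 0.00835) and Pln (0.61, adjusted p = 0.0206), the sum being 1682730 to 1784810 in Tg-TAC-MQ and 1003420 to 2224850 in Tg-TAC. Of 6 macrophage markers 1, C1qa (-0.53, adjusted p = 0.0475), was lower, as was the tendon marker Tnmd (-3.22, adjusted p = 0.00561). Of 6 pericyte markers Abcc9 was higher (1.21, adjusted p = 0.000203) and Higd1b lower (-0.54, adjusted p = 0.0249). Of 7 smooth muscle markers 2 were higher and 0 lower, Myocd (0.70, adjusted p = 0.000662) and Smtn (0.40, adjusted p = 0.0491). The Schwann cell marker Sox10 was higher (2.05, adjusted p = 0.00610). The share of reads from Rn18s-rs5, a ribosomal RNA row, was 0.591% to 1.33% in Tg-TAC-MQ and 2.38% to 11.8% in Tg-TAC, and 0.636% to 1.39% in Con-TAC-MQ and 1.55% to 9.22% in Con-TAC. The part of these shifts in the member differences was not tested.

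Meox1 had 339, 438 and 538 in Tg-TAC-MQ, against 318, 1467 and 2067 in Tg-TAC. The MitoQ libraries were close together and lay under all Tg-TAC libraries except Tg-TAC 6. The log2 difference was -1.42 (SE 0.38, limma adjusted p = 0.0106). Ddah1 was even more uniform, at 349.7, 368 and 398 in Tg-TAC-MQ, against 243, 743 and 963 in Tg-TAC. It differed by -0.76 (SE 0.21, adjusted p = 0.0111), which was lost with only the 12 libraries compared (adjusted p = 0.0795), and its coefficient of variation was 5.78% in Tg-TAC-MQ and 40.4% in Tg-TAC.

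Twist1 had 25.5, 36.3 and 54.1 in Tg-TAC-MQ, against 51.3, 71.2 and 154 in Tg-TAC. A single Tg-TAC-MQ library overlapped with Tg-TAC, and the log2 difference was -1.02 (SE 0.31, adjusted p = 0.0218). The highest Tg-TAC value was that of Tg-TAC 4, a library with an adipocyte marker sum of 9519 against 110.3 or less in the other 35 libraries, and Twist1 missed the threshold without it (-0.82, adjusted p = 0.0719) or without Tg-TAC-MQ 1 (adjusted p = 0.0564). Scx had 164, 263 and 360.3 in Tg-TAC-MQ, against 246, 502 and 525 in Tg-TAC, again with overlap through Tg-TAC 6. Its log2 difference of -0.80 (SE 0.26, adjusted p = 0.0347) did not pass without any 1 of Tg-TAC-MQ 1, 5 and 6 and Tg-TAC 1 to 5 (adjusted p = 0.0573 to 0.0985), though it passed without Tg-TAC 6 (adjusted p = 0.00626). It was also lost without the filter (adjusted p = 0.0503) and with totals outside the mitochondrial genome (adjusted p = 0.0694). The number class in the library names, a term that nearly coincides with MitoQ, was also added to the fit. The differences then were -3.14 for Meox1 (SE 0.75), -2.10 for Twist1 (SE 0.65), -2.02 for Scx (SE 0.53) and -1.48 for Ddah1 (SE 0.38). They were larger than without the term and had larger errors. Con-TAC 6 was the only vehicle library in the number class of the MitoQ libraries. The fit thus tells the class from MitoQ through that control heart alone. It cannot show whether the MitoQ differences hold apart from the class.

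Cthrc1 had 8.16, 17.2 and 39.4 in Tg-TAC-MQ, against 0, 94.2 and 368 in Tg-TAC, and did not pass (log2 difference -1.49, SE 0.92, adjusted p = 0.268). Without Tg-TAC 6 it did (-2.62, SE 0.72, adjusted p = 0.00706), so that 5 members were lower, where 27.3% of all genes then passed. Runx1 had 65.1, 92.8 and 108 in Tg-TAC-MQ, against 22.0, 160.1 and 277 in Tg-TAC (-0.48, SE 0.44, adjusted p = 0.477). Acta2 had 2849, 3365 and 7211 in Tg-TAC-MQ, against 3709, 6095 and 7855 in Tg-TAC (-0.60, SE 0.30, adjusted p = 0.161), and Tg-TAC-MQ 6 alone reached the upper part of the vehicle range.

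In control hearts no member passed with MitoQ in limma, where 3.23% of all tested genes did, and none had an unadjusted p under 0.05 or passed in edgeR or DESeq2. Meox1 had 265, 502 and 1051 in Con-TAC-MQ, against 265, 598 and 1470 in Con-TAC, a log2 difference of -0.21 with a 95% interval of -0.99 to 0.57. For Ddah1 the difference was -0.20 (interval -0.61 to 0.22), for Scx -0.23 (-0.77 to 0.31) and for Twist1 -0.14 (-0.77 to 0.49). For these 4 genes the lower bound was nearer to 0 than the estimate in cSirt4-Tg hearts, an estimate that has an error of its own, and the test of the difference between genotypes is the interaction.
The interaction of genotype with MitoQ passed for no member in limma, edgeR or DESeq2, and 0% of all tested genes passed in limma. Meox1 was the single member with an unadjusted p under 0.05, among 1377 such genes (-1.21, SE 0.54, limma unadjusted p 0.0318, adjusted p = 0.574). Without Tg-TAC 6, Tg-TAC 4, Con-TAC 6 and Con-TAC-MQ 3, the 4 libraries least correlated with their groups, Meox1 (-1.66, adjusted p = 0.0300) and Ddah1 (-0.80, adjusted p = 0.0226) passed, a choice made after seeing the data.

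With MitoQ, the genotype labels differed for none of the members in limma (0.0737% of all tested genes passed), edgeR or DESeq2. Acta2 alone had an unadjusted p under 0.05, with 2849, 3365 and 7211 in Tg-TAC-MQ, against 1775, 2110 and 4439 in Con-TAC-MQ (log2 difference 0.65, SE 0.30, adjusted p = 1.00). Against sham, no member passed in Tg-TAC-MQ (0.129% of all tested genes) or in Con-TAC-MQ (0.707%). In Tg-TAC-MQ no member had an unadjusted p under 0.05, and none passed in edgeR or DESeq2. In Con-TAC-MQ 4 members had such a p, as had 2734 of the 16275 tested genes, and 0 members passed in edgeR and 2 in DESeq2. Meox1 had 265, 502 and 1051 in Con-TAC-MQ, against 162, 212 and 265 in Con-Sham, with no overlap, as for 4.18% of all tested genes (log2 difference 1.23, SE 0.38, adjusted p = 0.120).

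Without TAC, no member passed between Tg-Sham and Con-Sham in limma, where 0.873% of all tested genes did, nor in edgeR or DESeq2. In limma 2 members had an unadjusted p under 0.05, among 2131 such genes of the 16275 tested. All 8 differences were positive, with a median of 0.40 on the log2 scale, against 0.00 over all tested genes. The 8 general fibroblast markers were all positive too, with a median of 0.39, and 1 of them, Lum, passed (0.76, adjusted p = 0.0414). Cthrc1 had 7.33, 15.7 and 27.8 in Tg-Sham, against 0, 2.75 and 8.16 in Con-Sham. Only the lowest Tg-Sham library overlapped with the sham controls, in which 2 libraries had no read (log2 difference 2.44, SE 0.92, adjusted p = 0.219). Ddah1 had 276, 362 and 459 in Tg-Sham, against 232, 262 and 314 in Con-Sham (0.43, SE 0.21, adjusted p = 0.368). Runx1 had 72.8, 88.6 and 105 in Tg-Sham, against 25.4, 50.1 and 75.1 in Con-Sham (0.90, SE 0.44, adjusted p = 0.383). Of 6 macrophage markers 4 were higher in Tg-Sham, with a summed level of 5025 to 6863 against 2952 to 3913 in Con-Sham, and the part of these cells in the Runx1, Cthrc1 and Ddah1 values was not tested.

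Fap and Lrrc15, both used as surface markers of activated fibroblasts, passed in none of the comparisons. Fap (chr2:62331287-62404419), a membrane serine protease, had 63.6, 149 and 257 in Tg-TAC, against 104, 136 and 177 in Con-TAC. Its highest group median was 165, in Con-TAC-MQ, and its lowest 109, in Con-Sham, and the groups overlapped throughout. The differences of the 9 group comparisons were between -0.10 and 0.43 on the log2 scale. In Tg-TAC against Tg-Sham the difference was 0.08 with a 95% interval of -0.34 to 0.50, which leaves out changes as large as those estimated for Meox1, Twist1, Scx or Ddah1. Of 8 relatives and other proteases listed beside Fap, 2 were higher and 0 lower in Tg-TAC than in Tg-Sham. Of the 8 differences 4 were positive, with a median of -0.02, against 16.7% called and a median of -0.01 over all tested genes. The secreted gelatinase Mmp2 was higher in Tg-TAC, at 3501 ± 1221, than in Tg-Sham, at 1824 ± 162 (SD, n = 6 each, log2 difference 0.86, adjusted p = 0.00298), and the secreted plasminogen activator Plat also rose (0.73, adjusted p = 0.0115).
Lrrc15 (chr16:30088120-30102074), a leucine-rich repeat membrane protein, was covered by 0 to 17 reads a library. It had 0, 4.17 and 8.09 in Tg-TAC, against 0.774, 3.04 and 16.4 in Con-TAC. Exact two-sided permutation tests gave p = 0.318 or more in all 9 comparisons, 0.926 after adjustment over them, so that no difference was detectable at this depth.

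Ranked over all 36 libraries, Tg-TAC 4 was among the 6 highest for all 8 tested members, Tg-TAC 3 and Tg-TAC 5 for 7, and Tg-TAC 1 and Con-TAC 6 for 6. Con-TAC-MQ 3 was among them for 4 members, and Tg-TAC 6 for 0. Con-Sham 2 and Con-Sham 4 were among the 6 lowest for 7 members each. Within groups, the deviations of Runx1 and Cthrc1 from their group means went together (r = 0.868 over 36 libraries, 0.780 without Tg-TAC 6), as did those of Runx1 with Ddah1 (0.819 and 0.692) and with Meox1 (0.812 and 0.720). Those of Acta2 were weakly related to every other member (r = -0.15 to 0.37). These values share library scaling and cell composition and are given as a description.

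The genes most like each member over the 36 libraries, by Spearman's rho, differed between members. For Meox1 they were Emp1 (0.928), Ltbp2 (0.924), a latent TGF-beta binding protein, and Cilp (0.917), a matrix protein of cartilage and heart fibroblasts. For Ddah1 they were the collagen gene Col1a2 (0.867), Ssc5d (0.864) and Rtn4 (0.856). Runx1 was closest to the cytokine receptor subunit Csf2rb (0.917), to Gm2a (0.900) and to the lysosomal protease Ctss (0.892). Cthrc1 was closest to the zinc transporter Slc39a13 (0.892), the galectin Lgals3 (0.888) and Tmbim1 (0.867), and Scx to Arfgap3 (0.834), Tmem45a (0.813) and Otub2 (0.808). Likeness was lower for Twist1 (Anapc15, 0.757), Acta2 (Atp6v0e2, 0.697) and Fap (Gng12, 0.564).

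Cell type markers moved with the members. In these bulk samples, fewer cells of a type and less RNA per cell cannot be told apart. The summed cardiomyocyte markers ran opposite to Meox1 (rho = -0.839), Cthrc1 (-0.857), Scx (-0.770), Runx1 (-0.758) and Ddah1 (-0.736) over the 36 libraries. Of the 8 cardiomyocyte markers 5 were lower in Tg-TAC than in Tg-Sham, where 16.7% of all tested genes passed in either direction. Macrophage markers ran with Runx1 (rho = 0.858), Cthrc1 (0.803) and Ddah1 (0.777), and less closely with the other tested members (0.274 to 0.599). The macrophage marker sum was 3651 to 8380 in Tg-TAC, with the lowest value in Tg-TAC 6, and 3383 to 4658 in Con-TAC. Of the 6 macrophage markers 4 were higher in Tg-TAC than in Con-TAC, where 3.19% of all tested genes were higher. The sum of smooth muscle markers, in which Smtn weighs heavily, had a rho of 0.016 with Acta2, which cannot show whether Acta2 follows smooth muscle cells. The sum of 8 general fibroblast markers was 53125 to 68275 in Tg-TAC, 44445 to 61530.2 in Con-TAC, 48141 to 64330.0 in Tg-Sham and 39302 to 49275 in Con-Sham, and its rho with the members was 0.215 to 0.540. Of these 8 markers 3 were higher in Tg-TAC than in Tg-Sham, where 7.91% of all tested genes were: Pdgfrl (1.58, adjusted p = 0.00395), Dcn (0.40, adjusted p = 0.0438) and Tcf21 (0.43, adjusted p = 0.0478). In Tg-TAC against Con-TAC 0 of the 8 passed, though 7 had positive differences, with a median of 0.33. Of 6 pericyte markers, Abcc9 was lower in Tg-TAC than in Tg-Sham (-1.26, adjusted p = 0.000346) and Cspg4 higher (0.55, adjusted p = 0.0470), as in Tg-TAC against Con-TAC (-0.71, adjusted p = 0.0319, and 0.66, adjusted p = 0.0373). In the latter comparison 6.48% of all tested genes passed. No marker of the cardiomyocyte, macrophage, smooth muscle and fibroblast lists was at 0 in every library. The part of cell composition in the member differences was not tested.

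**Figure D4:**
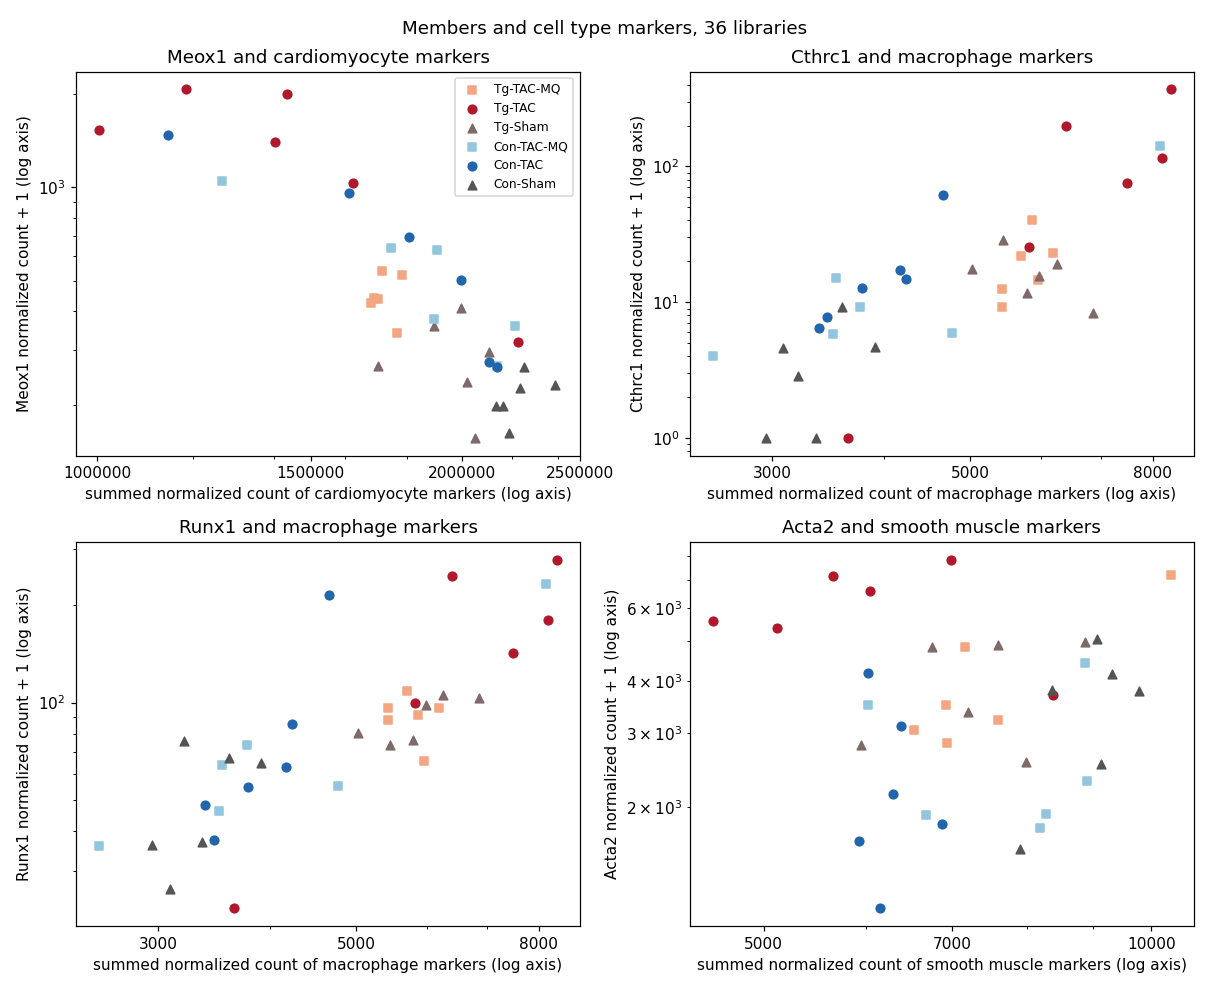
Each point is 1 of the 36 libraries, with the summed normalized count of a cell type's markers on the x axis and the normalized count plus 1 of a member on the y axis, both log axes. Meox1 falls as the cardiomyocyte sum rises (rho = -0.839), and Cthrc1 and Runx1 rise with the macrophage sum (0.803 and 0.858). Acta2 has a rho of 0.016 with the smooth muscle sum, in which the marker Smtn weighs heavily.

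The pathway around the members was read from 6 lists. Of 20 secreted and matrix genes of activated fibroblasts, 13 were higher and 0 lower in Tg-TAC than in Tg-Sham, with a median log2 difference of 1.37, against -0.01 over all tested genes, of which 16.7% passed and 7.91% were higher. They were led by periostin, Postn, at 19146 ± 13361 in Tg-TAC and 1901 ± 1064 in Tg-Sham (SD over 6 hearts each, log2 difference 2.84, adjusted p = 0.00401), by Ltbp2 (3.64, adjusted p = 0.00430) and by Comp (4.18, adjusted p = 0.00571), a cartilage matrix protein. In Con-TAC against Con-Sham, where 5.3% of all genes passed, 6 were higher and 0 lower, among them Cilp (3.09, adjusted p = 0.00618) and Aspn (1.00, adjusted p = 0.0161). In Tg-TAC against Con-TAC, where 6.48% of all genes passed, 6 were higher and 0 lower, led by the fibrillar collagens Col1a2 (1.30, adjusted p = 0.0165), Col1a1 (1.39, adjusted p = 0.0185) and Col3a1 (1.46, adjusted p = 0.0190). With MitoQ 0 were higher and 5 lower in Tg-TAC-MQ than in Tg-TAC, beside 17.3% of all genes in either direction and 7.44% lower, including Comp (-3.92, adjusted p = 0.00753) and the Wnt antagonist Sfrp2 (-1.81, adjusted p = 0.0169), and 0 of 20 passed in Con-TAC-MQ against Con-TAC.

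Among 17 contractile genes shared with smooth muscle, the neighbours of Acta2, 10 were higher and 1 lower in Tg-TAC than in Tg-Sham, with a median log2 difference of 0.55, beside the same 16.7% and -0.01 over all genes. The calponin Cnn2 (log2 difference 0.79, adjusted p = 0.00190), the scaffold Pdlim7 (0.73, adjusted p = 0.00403) and the tropomyosin Tpm2 (0.91, adjusted p = 0.00713) were among those higher, and smoothelin, Smtn, a protein of differentiated smooth muscle, was the 1 lower (-0.49, adjusted p = 0.0180). In Con-TAC against Con-Sham 0 were higher and Smtn was lower (-0.52, adjusted p = 0.0317). Between Tg-TAC and Con-TAC the myosin light chain Myl9 (1.03, adjusted p = 0.0253) and Cnn2 (0.58, adjusted p = 0.0297) were higher beside Acta2. With MitoQ 6 were lower in Tg-TAC-MQ than in Tg-TAC, against 7.44% of all genes, and 1, Smtn, was higher.

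Of 26 other transcription factors and cofactors of fibroblast activation, 7 were higher and 1 lower in Tg-TAC than in Tg-Sham, with a median log2 difference of 0.18, where 16.7% of all genes passed, 7.91% higher, and their median was -0.01. Sox9, a factor of cartilage and scar-forming fibroblasts, averaged 334 ± 172 in Tg-TAC and 97.4 ± 33.3 in Tg-Sham (SD over 6 hearts each, log2 difference 1.65, adjusted p = 0.00316), and Twist2, the paralogue of Twist1, differed by 1.01 (adjusted p = 0.0246). Mrtfb, a cofactor of serum response factor, was lower (-0.51, adjusted p = 0.0144). In Con-TAC against Con-Sham 0 of the 26 passed, and in Tg-TAC against Con-TAC only Sox9 did (1.32, adjusted p = 0.0290). With MitoQ, 3 were higher and 2 lower in Tg-TAC-MQ than in Tg-TAC, 5 of 26 where 17.3% of all genes passed, so that the list was near the background. Among them were Tead1 (0.49, adjusted p = 0.00237), Sox9 (-1.28, adjusted p = 0.0127) and Mrtfb (0.50, adjusted p = 0.0154).

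Of 21 upstream signals, 7 were higher and 2 lower in Tg-TAC than in Tg-Sham, with a median log2 difference of 0.40, against 16.7% of all genes and a median of -0.01. The TGF-beta ligand Tgfb3 averaged 1484 ± 622 in Tg-TAC and 549 ± 129 in Tg-Sham (SD over 6 hearts each, log2 difference 1.28, adjusted p = 0.00362), whereas the ligand Wnt5a was lower (-0.91, adjusted p = 0.00509). In Con-TAC against Con-Sham, and in Tg-TAC against Con-TAC, 0 of the 21 passed. With MitoQ 2 were higher and 7 lower in Tg-TAC-MQ than in Tg-TAC, where 7.44% of all genes were lower, with Wnt5a at 1.02 (adjusted p = 0.00185), the angiotensin receptor Agtr1a at 1.01 (adjusted p = 0.00502) and Tgfb1 at -0.49 (adjusted p = 0.0112).

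The list around Ddah1 had 9 nitric oxide and dimethylarginine genes, of which 6 were tested. Ddah2, the paralogue of Ddah1, was higher in Tg-TAC, at 647 ± 101, than in Tg-Sham, at 419.8 ± 46.3 (SD, n = 6 each, log2 difference 0.62, adjusted p = 0.00103), and in Con-TAC than in Con-Sham (0.44, adjusted p = 0.0235). It was also higher in Tg-TAC than in Con-TAC (0.50, adjusted p = 0.0135) and lower in Tg-TAC-MQ than in Tg-TAC (-0.61, adjusted p = 0.000670). The arginine transporter Slc7a1 went the other way, lower in Tg-TAC than in Tg-Sham (-0.53, adjusted p = 0.0180) and in Con-TAC than in Con-Sham (-0.79, adjusted p = 0.00455), and higher in Tg-TAC-MQ than in Tg-TAC (0.48, adjusted p = 0.0293).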

How the data were processed

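Whole hearts of 36 mice were profiled by RNA sequencing. The submitters' processing notes name Trim Galore, STAR and the build mm39. How reads were counted, whether by strand, and how they were normalized is not stated. The authors deposited 1 normalized count (signal) per gene and library, and 100% of the deposited values were whole reads times 1 step per library, within 0.01 read, so reads were recovered.

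limma 3.58.1 (R 4.3.3) was fitted to log2(value + 1), with 1 mean per group over all 36 libraries, a trend and robust moderation. Tests were two-sided and covered the 16275 genes that reached 10 in 6 or more libraries, with p-values adjusted over all of them (Benjamini-Hochberg) and a threshold of 0.05. Changes of low genes are understated on this scale. Lrrc15 and Sirt4 were tested by exact permutation. Alternatives were count tests of the recovered reads (DESeq2 1.42.0, edgeR 4.0.16), other pseudocounts, filters, scalings and weights, a block or covariate, and leaving out libraries. Depth limits the precision of low genes.

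The members and lists were chosen with earlier results of these data known, so no list test or list-wide p is given. Named genes are the members, up to 3 genes per list and comparison with the smallest adjusted p among those called, and the 3 genes most like each member with a mean of at least 100. Exon lengths are those of GENCODE M21 on GRCm38. Same-numbered libraries did not pair: over 90 pairs, the correlation of their deviations was -0.483 to 0.311, above 0.1 in 13. The limma p-values weigh a difference against the spread between hearts, taken as 1 moderated variance per gene that all 6 groups share. That spread differed between groups: the SD of log2 values of Meox1 was 0.24 in Con-Sham and 1.00 in Tg-TAC.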

Additional observations from a re-analysis of the deposited data

Results flagged for a closer look

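Among 60 groups of 6 values, for the 9 members and Sirt4, 8 held a library whose gap to its nearest neighbour was above the critical share of the group's range. That share is passed by about 1 in 20 groups of independent, normally distributed values. Here the gaps were taken on normalized counts, not on log2 values, and the 60 groups share libraries. The 8 can therefore not be weighed against that rate. Con-TAC-MQ 3 had 231.9 for Runx1, with the next library at 72.7, and 139.6 for Cthrc1, with the next at 14.2. Its macrophage marker sum, 8162, was the highest of its group. Con-TAC 6 had 214.3 for Runx1 (next 84.8) and 60.9 for Cthrc1 (next 16.3), and its cardiomyocyte marker sum, 1144310, was the lowest of its group. In Tg-TAC, library 4 had 154.5 for Twist1 (next 77.0), and library 6 had 246.3 for Scx (next 476.9) and 472.9 for Sirt4 (next 370.0). Con-Sham 2 had 606.2 for Sirt4, with the next library at 397.9. What sets these libraries apart was not tested.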

How the results depend on the processing

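The counts are of members past the threshold. In Con-TAC against Con-Sham, where 2 passed, 1 did with a pseudocount of 10, without a filter or with only the libraries compared, 0 with the name number class as a covariate or among name numbers 7 to 14, and 4 in DESeq2. Of all genes 5.25%, 2.04%, 4.78%, 1.02%, 0.147% and 8.86% passed there, in that order, against 5.3% in the fit used above. In Tg-TAC against Con-TAC, where 2 passed, 6 did with array weights, among name numbers 7 to 14 or without the 4 least correlated libraries, 5 with the covariate and 0 with only the libraries compared. In Tg-TAC against Tg-Sham and in Tg-TAC-MQ against Tg-TAC, where 4 passed, the alternatives other than leaving out 1 library gave 3 to 6 each. With the covariate, the MitoQ difference of Meox1 moved to -3.14, in a fit that tells the covariate from MitoQ through Con-TAC 6 alone. Where 0 passed, 2 did in Tg-Sham against Con-Sham with array weights or with only the libraries compared. Of all genes 6.57% and 5.40% passed there, against 0.873% in the fit used above. In Con-TAC-MQ against Con-Sham, 2 did in DESeq2 or with totals outside the mitochondrial genome, and 1 with array weights, with only the libraries compared or without the 4 libraries. In the genotype by MitoQ interaction, 1 did with array weights and 2 without the 4 libraries. The causes of these changes were not tested. Leaving out 1 library gave 0 to 2 members in Con-TAC against Con-Sham, 4 to 6 in Tg-TAC against Tg-Sham, 1 to 6 in Tg-TAC against Con-TAC, 2 to 5 in Tg-TAC-MQ against Tg-TAC, and 0 in the other comparisons. Lrrc15 changed sign with a pseudocount of 10 in Tg-TAC-MQ against Con-TAC-MQ (-0.0024) and Con-TAC-MQ against Con-Sham (-0.023). The fit with the replicate number as a block called 2 members in Con-TAC against Con-Sham, 4 in Tg-TAC against Tg-Sham, 2 in Tg-TAC against Con-TAC, 4 in Tg-TAC-MQ against Tg-TAC and 0 elsewhere, and it moved no count. Calls of Meox1 in Tg-TAC against Tg-Sham and in Tg-TAC-MQ against Tg-TAC held under every alternative run. For Tg-TAC-MQ against Tg-TAC the covariate fit is no check of the call, because it rests on Con-TAC 6. The MitoQ comparisons could not be fitted among name numbers 7 to 14. Over all genes, DESeq2 called 1438 genes in Con-TAC against Con-Sham (863 in limma, 924 in edgeR), 1730 in Tg-TAC against Con-TAC (1054 and 1051), 826 in Con-TAC-MQ against Con-TAC (526 and 440) and 321 in Tg-Sham against Con-Sham (142 and 98). Depth limits Lrrc15 and the sham values of Cthrc1.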

Other observations

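Library Tg-TAC 4, the highest of its group for Twist1, Fap, Runx1, Cthrc1 and Ddah1, also held adipocyte markers at a summed level of 9519, epicardial markers at 2123, lymphocyte markers at 1511 and tendon and valve markers at 3605, each the highest of all libraries of its group.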
